A study of Mus musculus with 6 samples.

Results

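The let-7 and miR-98 guide strands are the 5p arms of the let-7 microRNA (miRNA) family, and 9 of the 1978 mature miRNA names in the counted libraries belong to them by name. They were taken by name alone: let-7a, let-7b, let-7c, let-7d, let-7e, let-7f, let-7g, let-7i and miR-98, all 5p. The study used mouse embryonic stem cells whose genotype is Spy3-Ago2, and pulled down tagged AGO2, the Argonaute that brings miRNAs to their targets, with SpyCatcher3. Its 6 libraries were 2 miRNA libraries and 2 target libraries from the captured AGO2, and 2 input libraries from whole lysate. All 6 came from this genotype, grown in serum and LIF, which holds the cells in the undifferentiated state, and no group differed in treatment or time. The labels do not say whether the line is a single clone or whether each replicate had its own culture, and the spread between the replicates may be technical. Only the 2 miRNA libraries had a value per miRNA, and all results on levels rest on them.

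let-7 was among the first miRNAs found, in the worm Caenorhabditis elegans, where it times the passage from larva to adult. In mammals its members accumulate as cells differentiate and repress growth and early developmental genes such as Hmga2, Trim71 and Lin28a. In embryonic stem cells the RNA-binding proteins LIN28A and LIN28B bind let-7 precursors and block their maturation, so that let-7 genes can be transcribed while little mature let-7 is made.

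All 9 guide strands had the same seed, bases 2 to 8, which selects targets, and all were 22 bases long. The mature sequences, from RefSeq (build GRCm38.p6, in which all 9 were found), are shown because the members differ only outside the seed. Capitals mark the seed, and names stand in the order of their mean abundance.
mmu-let-7g-5p: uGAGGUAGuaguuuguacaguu
mmu-let-7c-5p: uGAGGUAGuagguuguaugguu
mmu-let-7f-5p: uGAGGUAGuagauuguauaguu
mmu-let-7a-5p: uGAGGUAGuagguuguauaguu
mmu-let-7d-5p: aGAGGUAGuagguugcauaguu
mmu-let-7e-5p: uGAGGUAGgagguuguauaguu
mmu-let-7i-5p: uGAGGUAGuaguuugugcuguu
mmu-miR-98-5p: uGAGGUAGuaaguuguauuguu
mmu-let-7b-5p: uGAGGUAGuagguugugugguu

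Any pair of these sequences differed at 1 to 6 positions. Counted from the 5′ end and with let-7a-5p written first, let-7c-5p differed by A19G, let-7e-5p by U9G and let-7f-5p by G12A. let-7d-5p differed by U1A and U16C, let-7g-5p by G12U and U18C, and miR-98-5p by G11A and A19U. let-7b-5p differed by A17G and A19G, so that it lay 1 base from let-7c-5p. The pairs at 1 base, 4 of 36, were let-7a with let-7c, let-7e and let-7f, and let-7b with let-7c. The sources used here do not say how reads that match several names were assigned, and the division of counts within these 4 pairs is therefore uncertain. If such reads were left out, the family sum would be too low as well, which was not tested. Apart from the members, the seed occurred in let-7k and miR-1961, and both were listed at 0 counts in both libraries, as was let-7j, whose seed is another.

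The 9 guide strands came from 12 hairpins, and 3 names (let-7a, let-7c and let-7f) could come from either of a pair of hairpins. let-7g-5p lay at chr9:106178846-106178867 (plus strand) within the span of Wdr82. let-7i-5p lay at chr10:122985698-122985719 (minus strand) in no other annotated gene. let-7a-1, let-7f-1 and let-7d shared 2261 bases of chromosome 13, with let-7d-5p at chr13:48536078-48536099 (minus strand). let-7c-2 and let-7b shared 801 bases of chromosome 15 within the noncoding gene Lncppara, and let-7f-2 and miR-98 shared 976 bases of the X chromosome within the span of Huwe1. Exons, introns and the strand of the spanning genes were not used here.

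Replicate 1 held 12562727 counts and replicate 2 held 22908172. A count of 0 allows up to 3 counts in a library, which is 2.39e-05% of replicate 1 and 1.31e-05% of replicate 2. Wilson intervals (95%) and this floor cover counting error only. As a check of the labelled cell type, 6 miRNAs of the miR-290/miR-295 cluster, which is typical of mouse embryonic stem cells, held 31.5% and 31.7% of replicates 1 and 2. Most of this was miR-290a-5p, which alone held 24.1% and 23.5%. A list of 10 miRNAs of differentiated or other cell types held 1.33% and 2.03%, and 9 of them had at least 10 counts in each library. Their part in the let-7 counts was not tested.

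The let-7 and miR-98 guide strands together had 2378 counts in replicate 1 and 3546 counts in replicate 2. The family thus made up 0.0189% of replicate 1, with a Wilson interval from 0.0182% to 0.0197%. It made up 0.0155% of replicate 2, with bounds of 0.0150% and 0.0160%, which gave a mean of 0.0172% ± 0.0024 (SD, n = 2 here and for all means). About 1 count in 5283 of replicate 1 and 1 in 6460 of replicate 2 was a let-7 guide strand. A single miRNA with the counts of the whole family would have stood at place 185 in replicate 1 and 202 in replicate 2. All 6 stem cell miRNAs of the list above exceeded the family sum one by one. So did 5 of the 10 miRNAs of differentiated or other cell types. miR-290a-5p, the most abundant miRNA of these libraries, had 1272 times the family's counts in replicate 1 and 1519 times in replicate 2.

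let-7g-5p had 551 counts in replicate 1 and 957 in replicate 2, or 0.00439% and 0.00418% of the library totals. let-7c-5p had 558 and 702 counts, or 0.00444% and 0.00306%. let-7f-5p had 435 and 578 counts, or 0.00346% and 0.00252%. These 3 were the most abundant members in both libraries, and let-7c-5p narrowly led in replicate 1 and let-7g-5p in replicate 2. let-7a-5p, whose sequence is identical from worm to human, had 323 and 504 counts, or 0.00257% and 0.00220%. let-7d-5p, the member that starts with A, had 243 and 343 counts, or 0.00193% and 0.00150%. let-7e-5p had 176 and 309 counts, or 0.00140% and 0.00135%. With let-7g, let-7c, let-7f and let-7a, let-7d completed the 5 most abundant members, which held 88.7% of the family in replicate 1 and 87.0% in replicate 2.

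The last 3 members stood well below the others. let-7i-5p had 55 and 100 counts, or 0.000438% and 0.000437%. miR-98-5p, the family member that carries another name, had 23 and 28 counts, or 0.000183% and 0.000122%. let-7b-5p had 14 and 25 counts, or 0.000111% and 0.000109%. Together these 3 made up 3.87% of the family in replicate 1 and 4.31% in replicate 2. let-7g-5p had 39.4 times the counts of let-7b-5p in replicate 1 and 38.3 times in replicate 2.

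**Figure D1:**
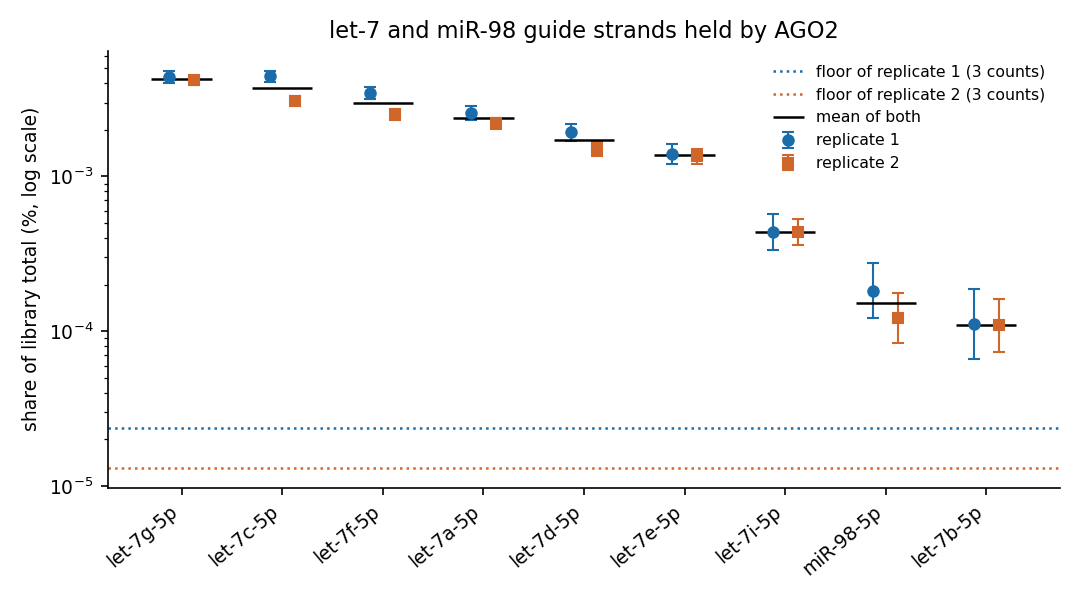
Share of the library total (%, log scale) of each guide strand in replicate 1 (circles) and replicate 2 (squares), with 95% Wilson intervals as bars, the mean as a black line and 3 counts as dotted lines. let-7b-5p, the lowest member, stands 4.67 times above the floor in replicate 1 and 8.33 times in replicate 2.

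No member was at the floor. The distance from 3 counts was 184-fold for let-7g-5p in replicate 1 and 319-fold in replicate 2. For let-7i-5p it was 18.3-fold and 33.3-fold, for miR-98-5p 7.67-fold and 9.33-fold, and for let-7b-5p 4.67-fold and 8.33-fold. All 9 members had at least 10 counts in each library, which held for 677 of the 1978 names (34.2%), and 6 members had at least 100 counts in each, as had 427 names. The precision followed the counts. The Wilson interval of let-7g-5p in replicate 1 ran from 0.00403% to 0.00477%, whereas that of let-7b-5p ran from 6.64e-05% to 0.000187%. Ordered by mean share, 84.5% of all 1978 names lay below let-7g-5p, 80.3% below let-7e-5p and 67.9% below let-7b-5p. Only 1212 of these names had a count in either library, and the names without a count are among those below.

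**Figure D2:**
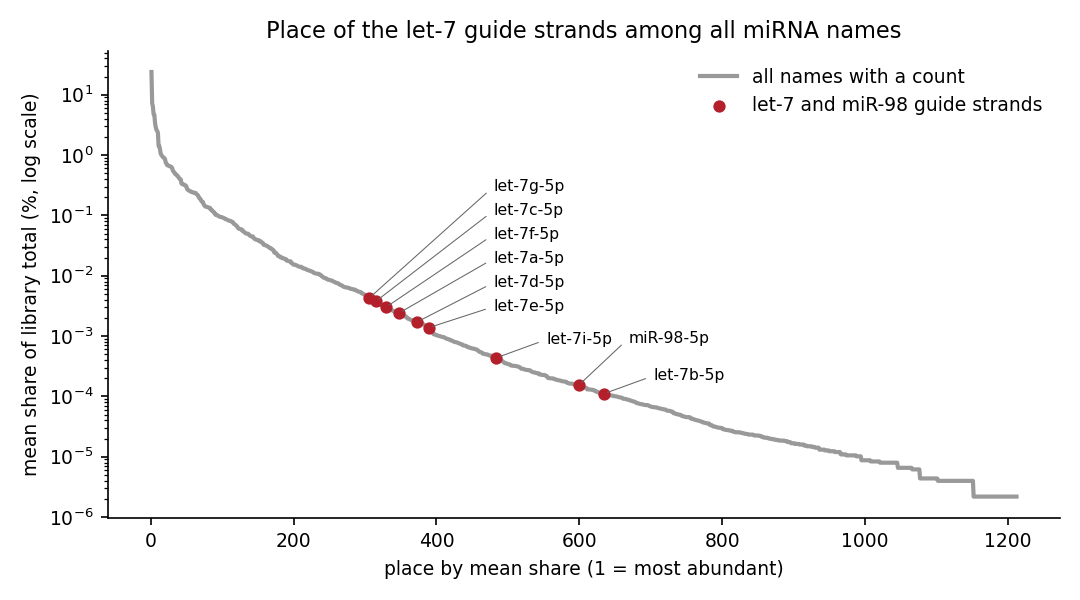
Mean share of the library total (%, log scale) of each miRNA name with a count (grey line), by place, with the 9 guide strands as red points. The members from let-7g-5p to let-7e-5p lie close together, and let-7i-5p, miR-98-5p and let-7b-5p lie further down the curve.

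The order of the members was let-7g, let-7c, let-7f, let-7a, let-7d, let-7e, let-7i, miR-98 and let-7b by mean share. Neighbours were taken to differ where their means lay further apart than the larger SD and their order was the same in both libraries. This held for 4 of the 8 neighbouring pairs, those from let-7a to let-7d, let-7d to let-7e, let-7e to let-7i and let-7i to miR-98. It did not hold for let-7g with let-7c, let-7c with let-7f, let-7f with let-7a, or miR-98 with let-7b. let-7g and let-7c were the single pair of the 36 whose order changed between the libraries, and 32 of the 36 pairs met the rule. The rule takes an SD of 2 values as the spread, and such an SD can fall below counting error. let-7d-5p and let-7e-5p met the rule, yet their Wilson intervals overlapped in replicate 2 (0.00135% to 0.00166% and 0.00121% to 0.00151%). In replicate 1 the intervals of this pair did not overlap. Within the family, let-7g-5p held 25.1% ± 2.7, let-7c-5p 21.6% ± 2.6, let-7f-5p 17.3% ± 1.4 and let-7a-5p 13.9% ± 0.45. let-7d-5p held 9.95% ± 0.39, let-7e-5p 8.06% ± 0.93 and let-7i-5p 2.57% ± 0.36.

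With names that lie 1 base apart summed, let-7a, let-7b, let-7c, let-7e and let-7f formed a group that held 63.3% of the family in replicate 1 and 59.7% in replicate 2. let-7g-5p, which is at least 2 bases from every other member, then took the place after it with 23.2% and 27.0%. let-7d, let-7i and miR-98 followed in the same order as before.

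Each of the 9 members had a lower share in replicate 2 than in replicate 1, and the ratio of replicate 2 to replicate 1 had a median of 0.856. Of the 677 names that reached 10 counts in each library, 53.6% were lower in replicate 2, with a median ratio of 0.974. let-7c-5p had a ratio of 0.690 (Fisher's exact test, two-sided, Benjamini-Hochberg adjusted p = 7.58e-10). let-7f-5p had a ratio of 0.729 (Fisher's exact test, adjusted p = 4.95e-06) and let-7d-5p a ratio of 0.774 (Fisher's exact test, adjusted p = 0.0107). These 3 of the 9 members passed, all with the lower share in replicate 2. Of all 1212 names tested, 27.1% passed in either direction and 14.4% with the lower share in replicate 2. Many of the 1212 had few counts, whereas all 9 members had at least 10 in each library. With only the 677 such names tested, 328 passed in either direction, among them the same 3 members.

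let-7a-5p, with a ratio of 0.856, had an adjusted p of 0.0934 by Fisher's exact test and did not pass. miR-98-5p had the lowest ratio of the family, 0.668, at 23 and 28 counts (Fisher's exact test, adjusted p = 0.375). let-7g-5p, let-7e-5p, let-7i-5p and let-7b-5p had ratios between 0.952 and 0.997 and adjusted p-values of at least 0.563 by the same Fisher's exact test. This test compares a pair of libraries of the same kind, not conditions, and takes every count as an independent molecule.

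**Figure D3:**
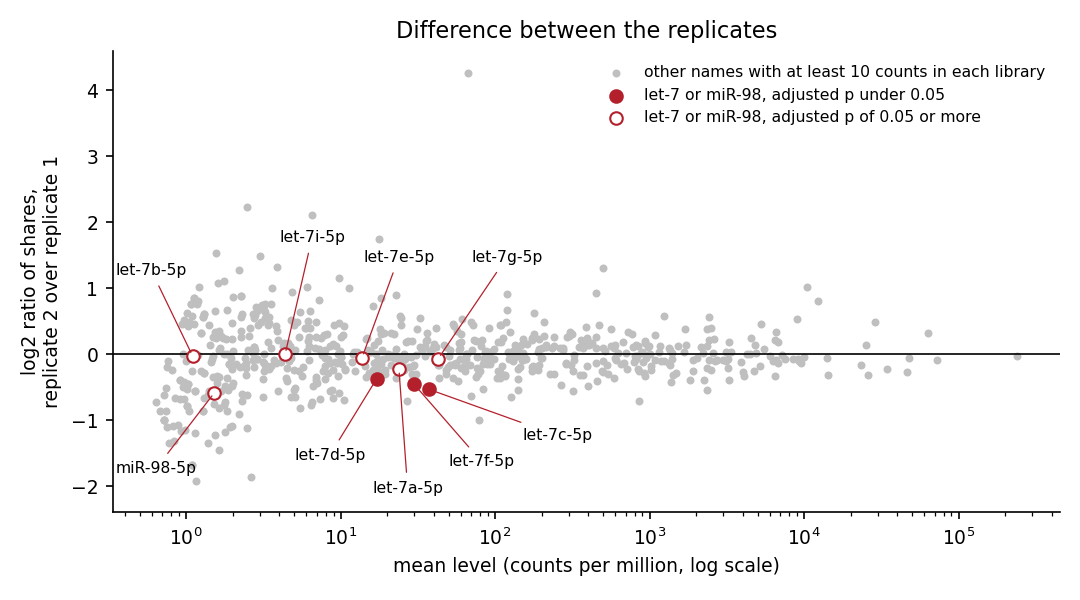
Log2 ratio of the share in replicate 2 over that in replicate 1 against the mean level (counts per 1000000 counts, or CPM, log scale) for names that reached 10 counts in both libraries, with the 9 guide strands in red, filled where the adjusted p of Fisher's exact test was under 0.05. All 9 lie at or below 0, from −0.0042 for let-7i-5p to −0.58 for miR-98-5p, within the cloud of grey points.

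The nearest other miRNAs by level were named by their distance in log2(CPM + 1), where CPM are counts per 1000000 counts, over the 2 libraries. miR-671-5p, at 44.7 and 41.6 CPM, lay closest to let-7g-5p with a distance of 0.029, followed by miR-669d-2-3p at 0.066 and miR-191-3p at 0.067. miR-19a-5p, with 2360 and 3595 counts, lay closest to the family sum at 0.022, followed by miR-674-3p at 0.077 and miR-1195 at 0.10. Over so few libraries this likeness is one of level.

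The 3p arms, which are usually discarded when a let-7 hairpin is loaded into Argonaute, had 97 counts in replicate 1 and 168 in replicate 2 over 12 names. The 5p arms thus held 96.1% and 95.5% of the family's counts over both arms. Without let-7a and let-7c, each of which has a 3p name that shares its sequence with another name, the 5p arms of the other 7 members held 93.9% and 93.3%. let-7g-5p made up 97.7% and 96.4% of the counts of its hairpin, against 13 and 36 counts of let-7g-3p. let-7e-5p made up 99.4% and 96.3%, against 1 and 12 counts of let-7e-3p. let-7d was less one-sided, with 87.4% and 85.1% on the 5p arm in replicates 1 and 2. Its Wilson intervals spanned 83.0% to 90.8% and 81.3% to 88.3%, and let-7d-3p, at 35 and 60 counts, was the most abundant 3p arm.

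let-7i had 72.4% and 80.0% of its counts on the 5p arm, with overlapping Wilson intervals of 61.4% to 81.2% and 72.1% to 86.1%, and 21 and 25 counts of let-7i-3p. miR-98 divided its counts evenly, with 23 and 28 on the 5p arm and 24 and 26 on the 3p arm. The 5p arm of miR-98 thus held 48.9% (Wilson 35.3% to 62.8%) and 51.9% (38.9% to 64.6%), and neither interval reached those of let-7d. By total over both arms, the less one-sided hairpins of let-7i and miR-98 were among the least abundant of the family.

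Of the 12 names of 3p arms, 6 were listed at 0 in both libraries, namely let-7a-1-3p, let-7a-2-3p, let-7b-3p, let-7c-1-3p, let-7c-2-3p and let-7f-1-3p. let-7a-1-3p and let-7c-2-3p have the same mature sequence. All 9 names in the tables that share a whole mature sequence with another had 0 counts, so these zeros are not taken as levels. For let-7b, 0 counts of the 3p arm beside 14 and 25 of the 5p arm bounded the 5p share at 78.5% or more in replicate 1 and 86.7% or more in replicate 2 by the Wilson interval.

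**Figure D4:**
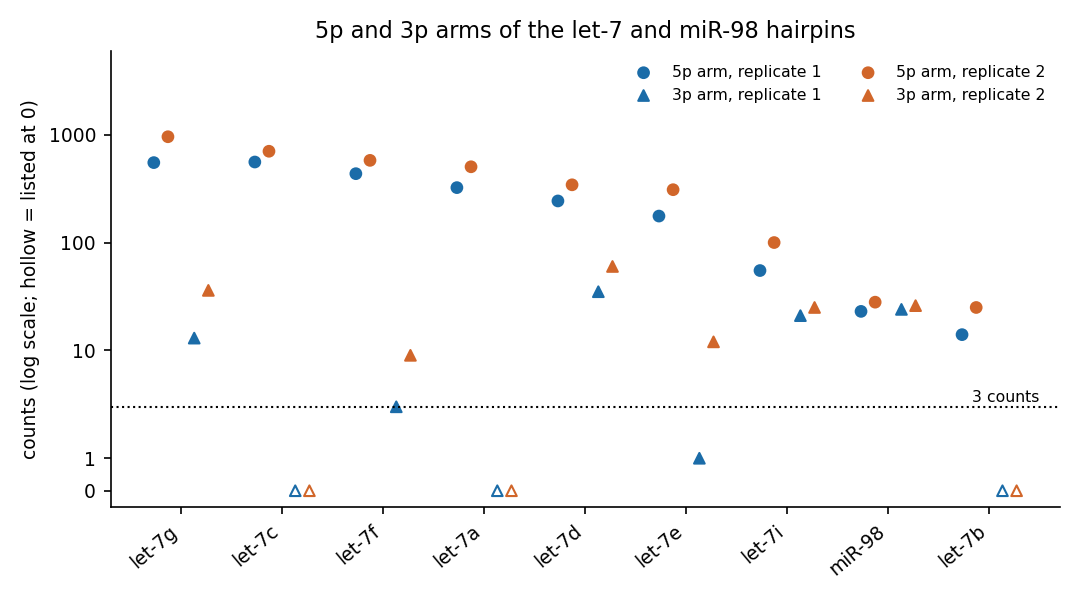
Counts (log scale) of the 5p arm (circles) and the 3p arm (triangles) of each let-7 or miR-98 name in replicates 1 and 2, with 3p arms of a name's hairpins summed. Values listed at 0 are drawn hollow at a fixed height below 1 count, and 3 counts are shown as a dotted line. The arms stand far apart at let-7g and let-7e, closer at let-7d and let-7i, and meet at miR-98.

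A few let-7 genes stand in clusters with genes of the miR-99/miR-100 and miR-125 families, which are made from the same primary transcript in other mammalian tissues. On chromosome 17, the genes of miR-99b, let-7e and miR-125a lie within 692 bases (chr17:17830188-17830879). let-7e-5p had 176 and 309 counts there, against 16231 and 31618 counts of miR-99b-5p and 35270 and 60478 counts of miR-125a-5p. Thus let-7e-5p made up 0.341% and 0.334% of the counts of these 3 guide strands. The log2 ratio of let-7e-5p over miR-99b-5p was −6.60 ± 0.11 and that over miR-125a-5p was −7.63 ± 0.02 (SD, n = 2). These SDs of 2 values can fall below counting error. At 176 counts in replicate 1, the Wilson interval of let-7e-5p ran from 0.00121% to 0.00162%. In both libraries let-7e-5p was at least 92.2 times less abundant than either neighbour, far beyond the difference between the replicates.

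The other clusters gave another picture. On chromosome 16, where the genes of miR-99a, let-7c-1 and miR-125b-2 lie within 47408 bases, let-7c-5p had 558 and 702 counts, against 28 and 127 counts of miR-99a-5p and 2364 and 4399 counts of miR-125b-5p. let-7c-5p was thus 19.9 and 5.53 times as abundant as miR-99a-5p, a log2 ratio of 3.39 ± 1.3. The log2 ratio of let-7c-5p over miR-125b-5p was −2.37 ± 0.40. On chromosome 9, where the genes of miR-100, let-7a-2 and miR-125b-1 lie within 50578 bases, let-7a-5p had 323 and 504 counts, against 6 and 19 counts of miR-100-5p. This was 53.8 and 26.5 times as many, a log2 ratio of 5.24 ± 0.72, and the log2 ratio of let-7a-5p over miR-125b-5p was negative, with 7.32 and 8.73 times as many counts of miR-125b-5p. let-7a, let-7c and miR-125b each have a gene elsewhere too, so the counts of these names cannot be assigned to a cluster. miR-99a-5p and miR-100-5p differ by 1 base, as do let-7e-5p and let-7a-5p, and the division of counts within both pairs is less certain.

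**Figure D5:**
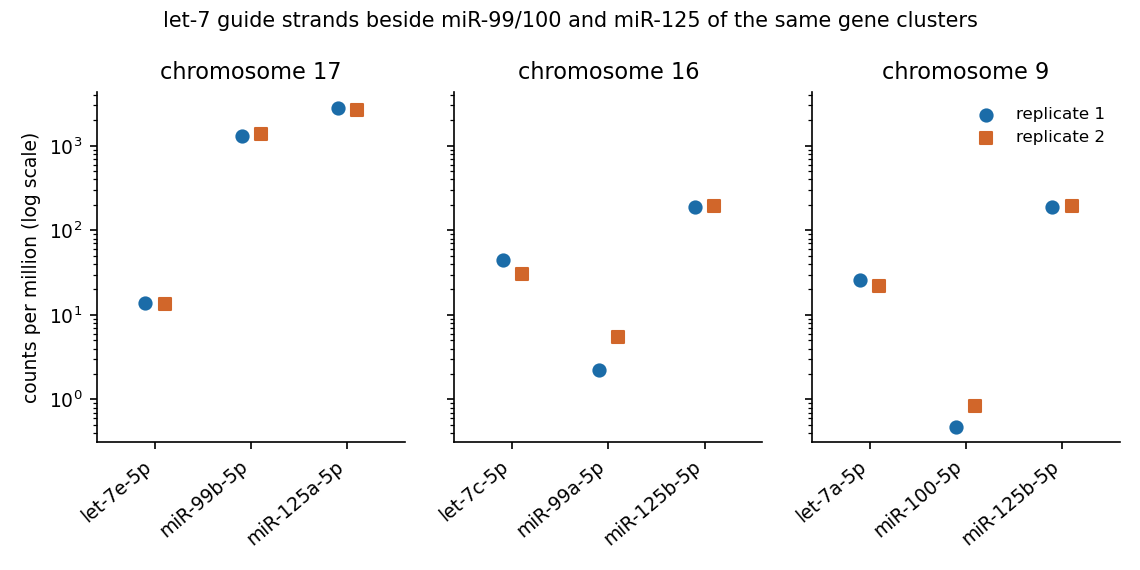
Level (CPM, log scale) of a let-7 guide strand and of the miR-99 or miR-100 and miR-125 guide strands of the same gene cluster in replicates 1 (circles) and 2 (squares), for chromosomes 17, 16 and 9. let-7e-5p lies far below both neighbours, whereas let-7c-5p and let-7a-5p lie above miR-99a-5p or miR-100-5p and below miR-125b-5p.

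LIN28 is known to hold let-7 precursors through a GGAG motif near the 3p arm in the loop of the hairpin. The motif was searched on the transcribed strand, between the annotated arms, in the RefSeq hairpins. It was found in 9 of the 12 let-7 and miR-98 hairpins (75%), against 44 of 633 other hairpins with both arms annotated (6.95%) and 7 of the 50 whose loop was also 23 to 36 bases long (14%). Searched over the whole hairpin, an alternative chosen after seeing the data, GGAG was in the same number of let-7 and miR-98 hairpins, 9 of 12, and in 252 of the 633 others (39.8%). In all 9 it ended 3 or 4 bases before the 3p arm. The stretches between the arms are shown for the most abundant member, for let-7e and for let-7b and let-7c-2, which are 2 of the 3 hairpins without the motif, with GGAG in capitals.
let-7g: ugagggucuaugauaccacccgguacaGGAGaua
let-7e: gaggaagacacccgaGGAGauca
let-7b: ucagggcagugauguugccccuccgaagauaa
let-7c-2: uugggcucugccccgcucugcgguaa

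A match is a description of these letters and shows no binding, and the motif was not set against the levels of the members.

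The deposited list of 3292 target peaks gave a single list for the series, with no value per replicate, and no peak overlapped a let-7 or miR-98 hairpin. Of 33 listed genes of the let-7 pathway and reported let-7 targets, 14 had at least 1 peak midpoint in their span, against 8.29% of all protein-coding genes, without regard to gene length or expression. Of the pathway genes, Lin28a and Trim71 had 2 peaks each, and Lin28b and the uridylyl transferase gene Tut4 1 each. Of the 26 listed targets, 10 had a peak, with the most in Igf2bp1 (5) and Mycn (4), and Hmga2 had none. Lin28a and Trim71, named above as repressed by let-7, were counted with the pathway genes and are not among the 26. The list was chosen from known biology with results of these data in view, and a peak does not show which miRNA was bound.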

How the data were processed

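Per the labels' protocols, RNA bound to tagged AGO2 was captured on a resin and cut from a gel, ligated to adapters that hold random bases, and amplified by PCR. The deposited miRNA tables hold raw counts per mature miRNA, without normalization; the rows without a name were left out and held 0 counts (0%). The submitters' processing notes name mm10, Bowtie2 2.4.2, STAR 2.5.2a and UMI-tools among other tools, without roles. The sources used here do not say if molecular identifiers were used to collapse the counts, and duplicates left in would narrow the intervals and lower the p-values. Ligation favours some small RNAs over others, so that ranks between names are ranks of counts. The deposited peak list has a score of 0 for each peak, and peaks could not be ranked by score.

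Shares of the library total, 95% Wilson intervals, means and SDs were computed. Fisher's exact test with Benjamini-Hochberg adjustment over 1212 names compared the libraries at 0.05. With 1 group of 2 counted libraries, no contrast between groups could be fitted. On simulated libraries of 1212 names, the test called 0 with no change, whereas 329 of 1212 names were called between the real replicates. The simulated pair thus lacked the spread of the real pair, and its 0 gives no rate of false calls for these replicates. For simulated libraries only, the test recovered 55% of 200 names changed 1.5-fold, 80.5% of those changed 2-fold and 95% of those changed 4-fold. It also called 3, 8 and 15 of 1012 unchanged names. Changed names were limited to shares under 0.01%. Without this limit the simulated total shifted by 0.232%, 4.66% and 48.4%, and 8, 121 and 380 unchanged names were called. edgeR 4.0.16 and DESeq2 1.42.0 gave alternative scaling factors. Sequences and positions are those of RefSeq, GRCm38.p6, which held 1679 of the 1978 names; a peak belonged to each gene whose span held its midpoint. Python 3.11.15, scipy 1.17.1 and R 4.3.3 were used.

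Members and lists were chosen with earlier results of these data known. Named were the 9 members, their 3p arms, other names with let-7 or its seed, miR-99, miR-100 and miR-125 of both arms (the 3p arms are not described), the 3 nearest names to let-7g-5p and to the sum, miR-290a-5p and pathway genes. Of the listed target genes only Igf2bp1, Mycn and Hmga2 were named. Replicates of the target and input groups were not analysed here, and 1 loop sequence is not reported here.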

Additional observations from a re-analysis of the deposited data

How the results depend on the processing

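Of 86 recomputed values, 0 reversed. In 72 of them 1 library was left out, which with 2 libraries moves a mean by less than 1 SD whatever the data and so says nothing about stability. Of the other 14, 10 moved by no more than the spread between replicates, or 1.5 times for counts, and 4 moved further. Some of these 10 had little or no room to move. Over 3 counts in each library is the main floor itself, and the added seed names held no counts. TMM factors near 1 (1.002 and 0.998) left the mean share almost fixed. The 10 also include the fall from 9 members above the floor to 6 with at least 100 counts. This tally is therefore no measure of stability. The family share was 0.0226% with miR-290a-5p left out of the library total, against 0.0172% with it. It ranged from 0.0155% without replicate 1 to 0.0189% without replicate 2. TMM library sizes and DESeq2 size factors both gave 0.0172%, as did adding the other names with the seed, which were all at 0, and pooled counts gave 0.0167%, and leaving out miR-98-5p gave 0.0171%. let-7g-5p took place 1 without replicate 1 and place 2 without replicate 2, behind let-7c-5p, and place 2 with names 1 base apart summed, since those 5 names then count as one. All 9 members had over 3 counts in each library and 6 had at least 100. The same number of members, 3, passed Fisher's exact test with TMM library sizes and with only the 677 names of at least 10 counts tested, where 337 and 328 names passed against 329. The 5p share of the family was 93.6% without let-7a and let-7c, an alternative chosen after seeing the data, against 95.8% with them and 95.5% to 96.1% with either library left out. A search of whole hairpins for GGAG, also added then, found 252 of 633 other hairpins, against 44 between the arms. The log2 ratio of let-7c-5p over miR-99a-5p was 2.47 without replicate 1 and 4.32 without replicate 2. No paired analysis was possible because only the miRNA libraries had values per replicate. Depth limits let-7b-5p and miR-98-5p most, at 14 to 28 counts.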
